A study of Drosophila melanogaster with 25 samples.

Results

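The 35 glutathione S-transferase (GST) genes of Drosophila melanogaster whose symbols place them in the Delta, Epsilon, Omega, Sigma, Theta or Zeta class were followed through 25 RNA-seq libraries. They were found by symbol among the 17208 genes of the deposited count tables, and comprise 11 Delta, 14 Epsilon, 3 Omega, 1 Sigma, 4 Theta and 2 Zeta genes. The series asks how RNA levels change with the dose of fat (ft), which encodes a large atypical cadherin of the growth and planar polarity pathways. Animals called FtICD here came from a stock in which ubi-Gal4, a broadly active driver, expressed UAS-FtICD-3xFLAG, the tagged intracellular domain of Fat. They were sampled as 16–20 h embryos (4 libraries), L3 wing discs (3) and L3 eye-brain complexes (3). Each was set against w1118 of the same tissue (4, 3 and 2 libraries). The ft null animals were ft fd5-5/ftX13 and gave 3 eye-brain libraries, set against 3 separate w1118 libraries in a second table. All were kept at 25 C. Larvae are staged in the labels as L3 without hours. Each genotype was compared with w1118 and not with a driver-only or balancer control of its own stock, so the stock and the ft genotype cannot be told apart in any of the comparisons.

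GSTs join glutathione to reactive, electrophilic molecules, among them insecticides, plant toxins and products of lipid peroxidation, or use glutathione as a cofactor for isomerisation and reduction. The cytosolic enzymes work as dimers. Delta and Epsilon classes expanded in insects and lie in tandem gene clusters, while Omega, Sigma, Theta and Zeta classes are shared with vertebrates. In flies many Delta and Epsilon genes respond to oxidative stress through the transcription factor CncC, which is held back by Keap1.

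Total counts ranged from 15016561 to 54256669 per library, and the 35 GST genes together took between 0.147% and 0.211% of them. Levels are given as CPM, the counts of a gene scaled to library size, on a single TMM scale over all 25 libraries, and levels of different genes are compared per kilobase of annotated exon. The ft gene was at 1314 to 1759 CPM in FtICD embryos against 28.9 to 42.7 in wild type, and was likewise far above wild type in FtICD larval tissues. In ft null it was at 132 to 150.1 CPM against 86.4 to 102, so the RNA level of ft does not check the ft null label. The tissue markers matched the labels: all 5 wing disc genes were higher in wild-type wing discs than in embryos, and all 5 neuronal genes were higher in eye-brain complexes than in wing discs. Eye-brain FtICD replicate 3 stood apart, with fat body markers summing to 5960 CPM while the lowest library of its group held 259. The calls of the 3 members raised in that group are also given without it. RNA of whole tissues was measured, so a smaller share of a cell type and less RNA per cell cannot be told apart. The labels number the libraries as replicates without naming cultures or animals, so p-values measure the spread between these libraries.

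In the reference annotation (BDGP6.54, the dm6 assembly) the 35 genes lie at 12 places. The 11 Delta genes form a cluster on chromosome 3R from 12364776 to 12385624, in the order GstD10, GstD9, GstD1, then GstD2 to GstD8 and GstD11. The first 3 run on the minus strand and the other 8 on the plus strand. Of the 14 Epsilon genes, 10 form a cluster on 2R from 18396638 to 18409835, with GstE10 on the minus strand followed by GstE1 to GstE9 on the plus strand. The other Epsilon genes, GstE11 to GstE14, are dispersed on 2R. The Omega genes lie together on 3L (8518885 to 8524866) and the Zeta genes on 3R (9455517 to 9460652). GstT1 and GstT2 are neighbours on 2R, while GstT4 (13404749 to 13409323) and GstT3 (20467455 to 20469796) lie far apart on the X chromosome. Exons of GstT2 overlap those of CG12926 on the opposite strand by 223 bases and exons of GstO2 overlap those of se by 61 bases, so these counts can share reads. The counts of GstT2 were not whole numbers in any of the 25 libraries, while those of GstD3, GstE9, GstE14 and GstT1 were whole in each library. How many reads near-identical paralogs of the clusters share was not analysed here.

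Wild-type tissues used different sets of GST genes, with the broadest set in embryos. In wild-type embryos 31 of the 35 genes reached 1 CPM in each of the 4 libraries, against 20 in wing discs and 24 in eye-brain complexes. Of the 21 members of the Delta and Epsilon clusters, 12 were at 1 CPM or more in each wild-type embryo library and below 3 CPM in each wild-type larval library. They were GstD2, GstD3, GstD7, GstD8, GstD10 and GstD11, and GstE3, GstE4, GstE6, GstE7, GstE9 and GstE10. The shares of all genes within these CPM limits were not counted. GstD4, GstD5 and GstD6 were low in all wild-type tissues. GstD1, GstD9, GstE11, GstE12, GstE13, and the Omega, Sigma and Theta genes were above 1 CPM in each wild-type wing disc and eye-brain library. Of 33 GST genes tested, 8 were higher and 21 lower in wing discs than in embryos, where 36.7% of all 12187 genes tested were higher and 50.8% lower (edgeR quasi-likelihood F test, Benjamini-Hochberg adjusted p under 0.05). Against embryos, eye-brain complexes had 5 GST genes higher and 23 lower, where 39.3% and 42.9% of all genes were. Between the larval tissues, 11 GST genes were higher and 11 lower in eye-brain complexes, with 29.2% and 20.9% of all genes called. The median log2 difference of the GST genes was -3.00 for wing disc against embryo and -1.71 for eye-brain against embryo, beside medians over all genes of -0.48 and -0.07. All 4 muscle markers were lower in both larval tissues than in embryos. Of 6 midgut and Malpighian tubule markers tested, 5 were lower and 1 higher in each. The part of such tissues in the GST differences was not tested. Embryos were sequenced on a different instrument from these larval tissues, and tissue and instrument cannot be told apart within these comparisons. The wild-type eye-brain libraries of the ft null table were sequenced on the same instrument model as the embryos. In them 21 of the 35 genes reached 1 CPM in each library. They were not part of these tests.

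**Figure D1:**
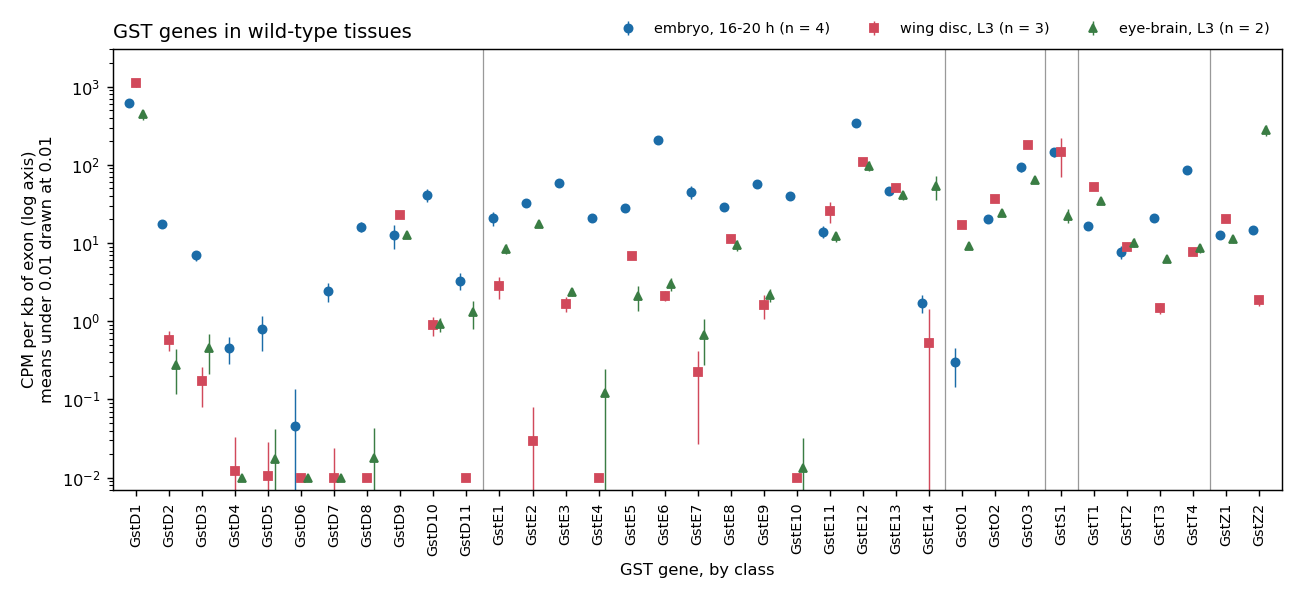
Mean CPM per kilobase of exon (log axis, error bars SD) of the 35 GST genes in wild-type embryos (circles, n = 4), wing discs (squares, n = 3) and eye-brain complexes (triangles, n = 2), with classes divided by vertical lines and means under 0.01 drawn at 0.01. GstD1 is highest in each tissue, much of the Delta and Epsilon clusters is near 0 outside embryos, and GstZ2 stands out in eye-brain complexes.

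The class makeup per kilobase followed a few genes. GstD1, the Delta enzyme best known for DDT metabolism and a standard reporter of oxidative stress, was the highest GST per kilobase in each of the 8 groups. It stood at 609.7 ± 65.0 CPM per kb in wild-type embryos (SD, n = 4), 1109 ± 117 in wing discs (n = 3) and 441 ± 65.3 in eye-brain complexes (n = 2). The Delta class therefore made up 62.2% ± 3.33 of the summed GST level per kilobase in wing discs, against 34.3% ± 1.16 in embryos and 38.8% ± 3.07 in eye-brain complexes. The Epsilon class made up 45.5% ± 0.343 of it in embryos, where GstE12 was highest at 344 ± 24.4 CPM per kb, but 11.7% ± 0.776 in wing discs. GstE12 was the leading Epsilon gene in the larval tissues too, at 109 ± 4.63 and 97.6 ± 14.8 CPM per kb.

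The leading gene differed by tissue in the Theta and Zeta classes but not in the Omega class. GstO3 led the Omega genes in all 3 tissues, at 92.9 ± 11 CPM per kb in embryos, 181 ± 16.6 in wing discs and 64.7 ± 0.143 in eye-brain complexes. Among the Theta genes GstT4 led in embryos (86.9 ± 10.9) and GstT1 in wing discs (52.8 ± 1.35) and eye-brain complexes (34.6 ± 1.34). The only Sigma gene, GstS1, whose enzyme acts on lipid peroxidation products and is abundant in adult flight muscle, was at 145 ± 19.4 in embryos, 145 ± 75.1 in wing discs and 22.5 ± 4.49 in eye-brain complexes. Its eye-brain level differed between the wild types, at 193 ± 24.2 (n = 3) in that of the ft null table. GstZ2 led the Zeta genes in embryos (14.8 ± 1.27) and eye-brain complexes (275 ± 44.3), and GstZ1 in wing discs (20.3 ± 0.526). In mammals the Zeta enzyme isomerises maleylacetoacetate in the breakdown of tyrosine.

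The genes with the steepest tissue differences were nearly silent on one side. GstE10 had 3860 counts over the 4 wild-type embryo libraries (43.5, 48.1, 40.8 and 47.0 CPM) and 0 over the 3 of wing discs, and was at least 1879-fold lower there. GstE4 had 1505 counts in embryos (16.6, 19.5, 16.1 and 17.8 CPM) and 0 in wing discs, at least 733-fold lower. GstD8 had 1117 counts in embryos (13.3, 15.5, 12.3 and 11.2 CPM) and 0 in wing discs, at least 544-fold lower. These bounds use a floor of 3 counts over the group and cover counting error only. In eye-brain complexes GstE10 and GstD8 had 1 count each, and GstD7, with 2.55, 1.61, 1.53 and 1.59 CPM in embryos, had none and was at least 41.1-fold lower.

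GstE2 and GstE5 separated the larval tissues in opposite directions. GstE2 was at 30.1, 29.2, 32.4 and 24.7 CPM in wild-type embryos and at 16.1 and 15.5 in eye-brain complexes, but had 3 counts over all wing disc libraries, a ratio of 660 between the larval tissues (95% exact interval 225 to 3203). GstE5, by contrast, was at 5.06, 5.06 and 4.95 CPM in wing discs and 1.94 and 1.14 in eye-brain complexes (log2 difference -1.68 ± 0.22 SE, edgeR adjusted p = 9.3e-05).

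GstZ2, GstE14 and GstO1 were the members most raised in eye-brain complexes over embryos. GstZ2 was at 566 and 712 CPM in wild-type eye-brain complexes against 33.2, 38.5, 34.4 and 31.6 in embryos and 3.63, 4.88 and 4.35 in wing discs. The 3 tissues did not overlap, with log2 differences of 4.24 ± 0.13 and 7.24 ± 0.17 (SE). GstO1 was at 9.25 and 8.48 CPM in eye-brain complexes and 15.6, 15.9 and 16.7 in wing discs, but at 0.0946 to 0.46 in embryos (log2 difference 4.94 ± 0.30 and 5.78 ± 0.28, edgeR adjusted p = 1.0e-07 and 1.2e-08). GstT1 was at 51.1, 53.3 and 53.5 CPM in wing discs against 15.9, 15.6, 17.9 and 15.5 in embryos, and GstO3 at 154, 148 and 176 against 95.4, 72.6, 80.4 and 78.8, both without overlap. GstE14, also named noppera-bo, serves ecdysone synthesis in the ring gland, the endocrine organ attached to the brain. It was at 67.7 and 40.9 CPM in eye-brain complexes, at 1.8, 2.17, 1.79 and 1.13 in embryos, and at 0.0263, 0 and 1.58 in wing discs. Wild-type replicate 3, which held 87 of the 88 GstE14 counts in wing discs, also held spok at 15.3 CPM and phm at 5.98, the highest of the wing disc libraries for these ring gland genes.

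In embryos GST genes changed in both directions with FtICD. Of 32 tested, 9 were higher and 13 lower, where 26.7% of all 11422 genes tested were higher and 25.8% lower. The median log2 fold change of the 32 was -0.12, and that of all genes was 0.00. By class, 2 Delta, 4 Epsilon, 2 Theta and 1 Zeta gene were higher, while 3 Delta, 5 Epsilon, 2 Omega, 1 Sigma, 1 Theta and 1 Zeta gene were lower. The genes that were lower included the 4 highest per kilobase in wild type, with log2 fold changes of -0.47 for GstD1, -0.58 for GstE12, -0.72 for GstE6 and -0.44 for GstS1. Of the called members 86.4% had groups that did not overlap, beside 86% of all called genes. Ribosomal RNA took 10.9% to 14.8% of counts in FtICD embryos and 3.97% to 5.63% in wild type, without overlap. Of 4 late epidermal markers 1 was higher (ple) and 2 were lower, and their sum of 10251 to 12401 CPM against 14682 to 20505 was mostly TwdlM. Muscle markers summed to 15577 to 19646 CPM against 23383 to 26118 (1 of 4 lower), and haemocyte markers to 217 to 239 against 184 to 194 (5 of 7 higher). The part of these differences in the GST calls was not tested.

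**Figure D2:**
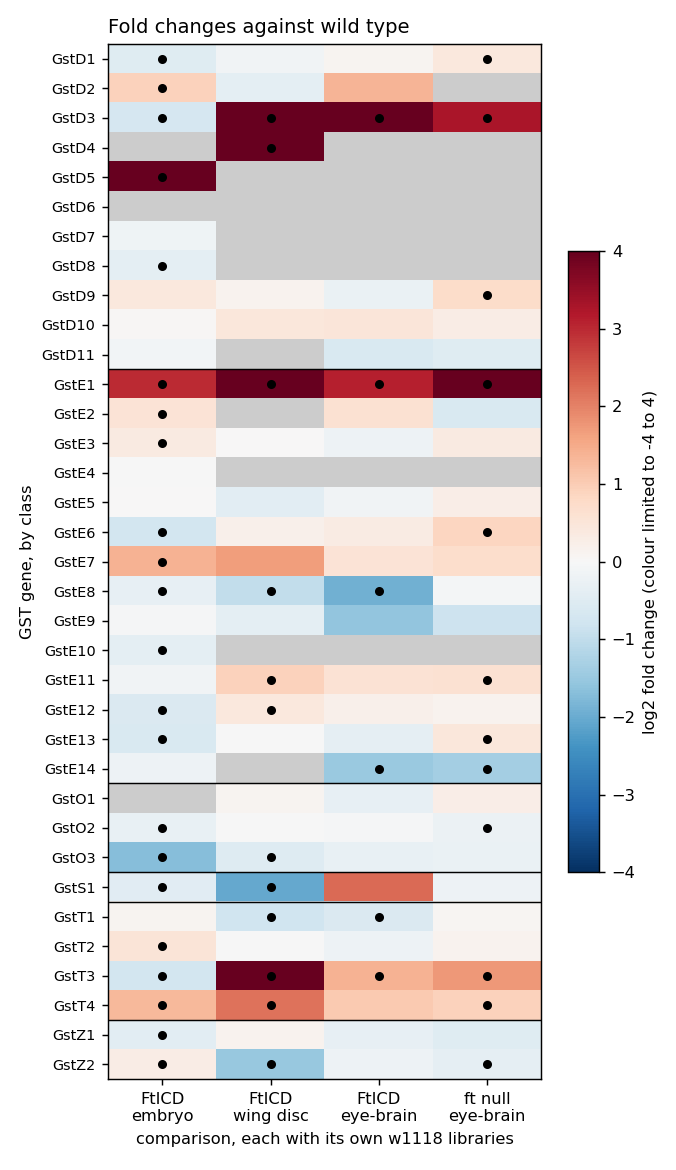
Log2 fold change (colour, limited to -4 to 4) of each GST gene in the 4 comparisons with wild type. Black dots mark calls at an adjusted p under 0.05, and grey marks genes not tested for low counts: GstE1 is raised in all 4 columns, whereas GstD3 and GstT3 are raised in the 3 larval columns and lower in embryos.

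The genes most raised in FtICD embryos were GstD5, GstE1 and GstE7. GstD5 was at 28.3, 6.96, 7.19 and 6.23 CPM in FtICD embryos and 1.13, 0.520, 0.409 and 0.627 in wild type, without overlap (log2 fold change 4.23 ± 0.60 SE, edgeR adjusted p = 2.0e-04). FtICD replicate 1 was far above the other FtICD libraries, and without it the log2 fold change was 3.36. GstE1 was at 179, 125, 113 and 113 CPM against 21.0, 13.2, 19.8 and 15.7 (2.98 ± 0.19, adjusted p = 1.5e-06). GstE7 was at 127, 69.2, 71.5 and 77.8 CPM against 42.3, 29.9, 37.7 and 28 (1.38 ± 0.21, adjusted p = 3.0e-04). For all 3, each FtICD library was above each wild-type library, and the highest value was in FtICD replicate 1.

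The genes most lowered in FtICD embryos were GstO3, GstE6 and GstT3. GstO3 was at 26.6, 26.5, 22.8 and 20.1 CPM against 95.4, 72.6, 80.4 and 78.8 in wild type, the deepest fall of the family (log2 fold change -1.72 ± 0.12 SE, adjusted p = 2.0e-06). GstE6 was at 129, 80.1, 78.9 and 71.4 CPM against 173, 139, 159 and 146 (-0.72 ± 0.17, adjusted p = 4.9e-03). GstT3 was at 14.8, 18.0, 19.3 and 15.6 CPM against 28.2, 27.6, 29.9 and 29.8 (-0.72 ± 0.10, adjusted p = 1.2e-04). None of these groups overlapped, although for GstE6 the gap between FtICD replicate 1 and the lowest wild-type library was small. GstT4 was at 239.5, 236, 251 and 286 CPM against 125, 102, 101 and 95.3, also without overlap. The other calls in embryos had log2 fold changes from -0.69 to 1.31, and those of GstZ2, GstE3 and GstT2 had overlapping groups. The spans of GstE10 and GstE1 overlap at their starts on opposite strands. Any stretch of exon they share is shorter than the 61 bases shared by GstO2 and se. Reads from such a stretch cannot be told apart without strand. GstE10 was lower in FtICD embryos (-0.38 ± 0.11, adjusted p = 0.015) while GstE1 was higher.

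In FtICD wing discs some GST genes rose by very large factors. Of 26 tested, 7 were higher and 5 lower, where 7.67% of all 9416 genes tested were higher and 9.97% lower. None of the 12 had overlapping groups, as was so for 99.9% of all called genes, and the median log2 fold change of the 26 was 0.08, against 0.01 over all genes. The raised genes were GstD3, GstD4, GstE1, GstE11, GstE12, GstT3 and GstT4. The lowered genes were GstS1, GstZ2, GstE8, GstT1 and GstO3. Of 10 ecdysone-induced genes, listed as a readout of larval stage, 7 were lower and 1 higher in FtICD wing discs, and their sum was 464 to 1144 CPM against 4411 to 6308 in wild type. Fat body markers summed to 84.6 to 1135 CPM against 36.2 to 103 (2 of 7 higher), and glial markers to 43.3 to 51.1 against 19.5 to 25.3 (2 of 3 tested higher). The part of these differences in the GST calls was not tested.

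GstD3 and GstD4 were close to absent from wild-type wing discs and present in FtICD ones. GstD3, whose protein lacks the amino-terminal stretch of other Delta enzymes, was at 37.4, 37 and 33 CPM in FtICD wing discs and 0.0527, 0.185 and 0.145 in wild type. Its log2 fold change of 8.08 ± 0.27 (SE) placed it above any other GST in any comparison between genotypes. Its neighbour GstD4 had 34, 77 and 61 counts in FtICD and 1, 0 and 0 in wild type, a ratio of 164 with a 95% exact interval of 29.1 to 6521 (edgeR adjusted p = 3.1e-03). GstD2, the neighbour on the other side, was at 0.190, 0.224 and 0.569 CPM against 0.395, 0.556 and 0.327 and was not called. Of the 6 cluster members tested there, the adjacent GstD3 and GstD4 were called and GstD1, GstD2, GstD9 and GstD10 were not.

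GstE1, GstT3 and GstT4 were raised in FtICD wing discs too. GstE1 was at 49.5, 54.1 and 53.1 CPM against 2.90, 1.51 and 2.64 in wild type. GstT3 was at 35.1, 34.0 and 30.5 CPM against 2.03, 1.67 and 2.35 (log2 fold change 4.0 ± 0.15 SE, adjusted p = 2.3e-05). GstT4 was at 42.4, 44.7 and 43.2 CPM against 10.5, 8.67 and 9.31 (2.16 ± 0.10, adjusted p = 8.0e-05). The 3 FtICD libraries lay close together for each of these genes, and the wild-type libraries far below them. GstE12, the leading Epsilon gene, was at 213, 211 and 199 CPM against 147, 151 and 159 (0.41 ± 0.07, adjusted p = 7.7e-03). GstE11 was at 59.7, 42.5 and 38.9 CPM against 17.5, 23.5 and 31.4 (0.93 ± 0.24, adjusted p = 0.039), groups that nearly met. Its call was lost without FtICD replicate 1 or 2 or wild-type replicate 1 or 2, at adjusted p from 0.083 to 0.12.

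GstS1, GstZ2 and GstE8 were the most lowered in FtICD wing discs. GstS1 was at 108, 69.6 and 68.4 CPM against 478, 371 and 143 (-2.05 ± 0.44, adjusted p = 0.021), with wild-type replicate 3 far below its group. Its call was lost without FtICD replicate 2 or 3 or wild-type replicate 1 or 2, at adjusted p from 0.052 to 0.093. GstZ2 was at 1.48, 1.29 and 1.78 CPM against 3.63, 4.88 and 4.35 (-1.53 ± 0.23, adjusted p = 6.6e-03), low in either genotype beside its level in eye-brain complexes. GstE8 was at 6.14, 6.45 and 6.67 CPM against 12.1, 11.8 and 13.6 (-0.99 ± 0.12, adjusted p = 2.9e-03). GstE14 had 0 counts in FtICD wing discs and 88 in wild type, 87 of them in replicate 3, and was too low to be tested. Without that library the wild-type count was 1.

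In FtICD eye-brain complexes the spread between libraries was wide, with a biological coefficient of variation of 33.7% against 14.9% in embryos, 20.6% in wing discs and 11.9% in the ft null set. Of 28 GST genes tested, 3 were higher and 3 lower, where 3.15% of all 10841 genes tested were higher and 1.08% lower. Raised were GstD3, GstE1 and GstT3, all raised in wing discs as well. Lowered were GstE8, GstE14 and GstT1, of which GstE8 and GstT1 were lower in wing discs as well. The median log2 fold change of the 28 was -0.10, against 0.01 over all genes. The raised members numbered 1 without FtICD replicate 1 or wild-type replicate 2 and 5 without FtICD replicate 2, and the lowered ones 0 without FtICD replicate 1 or either wild-type library and 1 without FtICD replicate 2. The counts over all genes moved as well, from 341 higher and 117 lower to 8 and 2 without FtICD replicate 1, 8 and 0 without wild-type replicate 2, 49 and 6 without wild-type replicate 1, 585 and 280 without FtICD replicate 3, and 1178 and 659 with DESeq2.

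GstD3 was at 12.8, 12.0 and 14.7 CPM in FtICD eye-brain complexes and 0.462 and 0.211 in wild type (log2 fold change 5.26 ± 0.41 SE, adjusted p = 0.010). GstE1 was at 61.8, 63.4 and 56.9 CPM against 7.75 and 6.38 (3.09 ± 0.14, adjusted p = 3.5e-03). GstT3 was at 25.5, 23.9 and 19.7 CPM against 8.96 and 8.39 (1.40 ± 0.16, adjusted p = 0.023). FtICD replicate 3, the library rich in fat body markers, lay within or near the range of the other FtICD libraries for all 3, and without it all 3 calls were kept. GstD4 had 19, 12 and 6 counts in FtICD and 0 in wild type, at least 6.80-fold higher, and was too low to be tested. With 2 wild-type libraries, GstD3 had an adjusted p of 0.079 when FtICD replicate 1 was left out and 0.073 when wild-type replicate 2 was. GstT3 had 0.12 when FtICD replicate 1 was left out, and 0.11 and 0.18 when either wild-type library was.

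GstE8 was at 3.30, 2.73 and 2.39 CPM in FtICD eye-brain complexes against 11.8 and 9.47 in wild type (-1.93 ± 0.23, adjusted p = 0.024). GstE14 was at 23.4, 16.6 and 18.0 CPM against 67.7 and 40.9 (-1.5 ± 0.26, adjusted p = 0.046). GstT1 was at 22.8, 24.3 and 23.3 CPM against 35.5 and 33.6 (-0.57 ± 0.10, adjusted p = 0.047). The groups did not overlap for any of them, as was so for all 458 genes called in this comparison. The calls were narrow. That of GstE8 was lost without FtICD replicate 1 or either wild-type library, and those of GstE14 and GstT1 without FtICD replicate 1 or 2 or either wild-type library, at adjusted p from 0.074 to 0.25. GstT1 was also lost with no filter on low counts (0.064).

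Some members stood apart in level without being called. GstS1 was at 298, 119.8 and 325 CPM in FtICD eye-brain complexes against 58.4 and 43.9 in wild type (2.27 on the log2 scale, adjusted p = 0.073), and was called without FtICD replicate 2 (adjusted p = 9.5e-03). GstT4 was at 25.1, 15.9 and 24.5 CPM against 11.5 and 9.44 (1.06, adjusted p = 0.095), and was likewise called without replicate 2 (0.033). GstE9 was at 0.418, 0.519 and 0.787 CPM against 1.47 and 1.92 (-1.57, adjusted p = 0.11). All 3 had groups that did not overlap, with 2 wild-type libraries on 1 side. How many of all uncalled genes did so was not counted.

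In ft null eye-brain complexes more GST genes were raised than lowered. Of 27 tested, 9 were higher and 3 lower, where 23.5% of all 9978 genes tested were higher and 21% lower. The median log2 fold change of the 27 was 0.27, against 0.00 over all genes. Raised were GstD1, GstD3, GstD9, GstE1, GstE6, GstE11, GstE13, GstT3 and GstT4. Lowered were GstE14, GstZ2 and GstO2, and without wild-type replicate 2 the lowered members numbered 6. All 7 haemocyte markers were higher in ft null, summing to 317 to 416 CPM against 112 to 124, all 5 neuronal markers were lower, and 8 of 10 ecdysone-induced genes were lower. The part of these differences in the GST calls was not tested.

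GstE1 was at 55.5, 57.9 and 54.5 CPM in ft null and 4.30, 2.99 and 3.14 in its wild type. GstD3 was at 2.42, 2.37 and 5.79 CPM against 0.57, 0.187 and 0.33, with ft null replicate 3 above the other 2 libraries. GstT3 was at 22.3, 21.9 and 20.2 CPM against 6.22, 7.75 and 5.06. For these 3 genes each ft null library was above each wild-type library. GstT4 was at 46.2, 54.9 and 47.9 CPM against 29.7, 21.3 and 28.6 (0.91 ± 0.11, adjusted p = 6.8e-04). GstE11 was at 22.4, 22.7 and 25.5 CPM against 15.8, 15.8 and 14.7 (0.61 ± 0.09, adjusted p = 1.4e-03). GstD9 was at 9.01, 8.67 and 7.66 CPM against 5.24, 4.48 and 5.56 (0.73 ± 0.14, adjusted p = 4.8e-03).

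The remaining raised genes had smaller log2 fold changes. GstD1 was at 341, 336 and 370.0 CPM in ft null against 292, 254 and 238, and GstE13 at 30.5, 34.4 and 35.1 against 24.2, 24.0 and 24.0. GstE6 was at 5.13, 3.78 and 4.63 CPM against 2.13, 2.80 and 2.59 (0.85 ± 0.22, adjusted p = 0.016). Its call was lost without ft null replicate 1 or 3 or wild-type replicate 1, at adjusted p from 0.052 to 0.060.

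GstE14 was at 12.5, 12.3 and 12.5 CPM in ft null against 37.0, 35.8 and 22.5 in its wild type (-1.35 ± 0.19, adjusted p = 1.2e-03). Of the 5 ring gland genes set beside it, chosen after the data were seen, spok, which like GstE14 serves ecdysone synthesis, was also lower (-1.27 ± 0.16, adjusted p = 8.7e-04), and phm, dib, sad and sro were not called. In FtICD eye-brain complexes, where GstE14 was lower too, none of the 5 was called, and spok differed by -0.06 (adjusted p = 0.84). GstZ2 was at 351, 407 and 387 CPM in ft null against 521, 422 and 542 (-0.37 ± 0.08, adjusted p = 9.6e-03). GstO2 was at 28.7, 32.4 and 29.0 CPM against 38.8, 32.4 and 35.6 (-0.24 ± 0.07, adjusted p = 0.030). Its groups overlapped, with replicate 2 at 32.45 CPM in ft null and 32.39 in wild type. Its call was lost without ft null replicate 1 or 3, without wild-type replicate 1 or 3 and with no filter on low counts, at adjusted p from 0.052 to 0.12.

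Both genotypes alter ft, so their calls were set side by side. Of the 12 GST genes called in ft null, 8 were called in the same direction in at least 1 FtICD tissue, and 1, GstD9, was called in none. These are 66.7% and 8.33% of the 12, beside 30.1% and 37.5% of all 4440 genes called in ft null. The same 8 are 30.8% of the 26 members called in any FtICD tissue, beside 19.6% of all 6827 genes called there. GstE1 was raised in all 3 FtICD tissues and in ft null. GstD3 and GstT3 were raised in FtICD wing discs, FtICD eye-brain complexes and ft null, and GstT4 in FtICD embryos, FtICD wing discs and ft null. GstE11 was raised in FtICD wing discs and ft null, GstE14 was lowered in both eye-brain comparisons, GstZ2 was lowered in FtICD wing discs and ft null, and GstO2 in FtICD embryos and ft null. The ft null and FtICD comparisons used separate libraries of wild type under the same w1118 label. A difference of stock shared by both genotypes against w1118 and a response to altered ft cannot be told apart for these 8 genes.

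**Figure D3:**
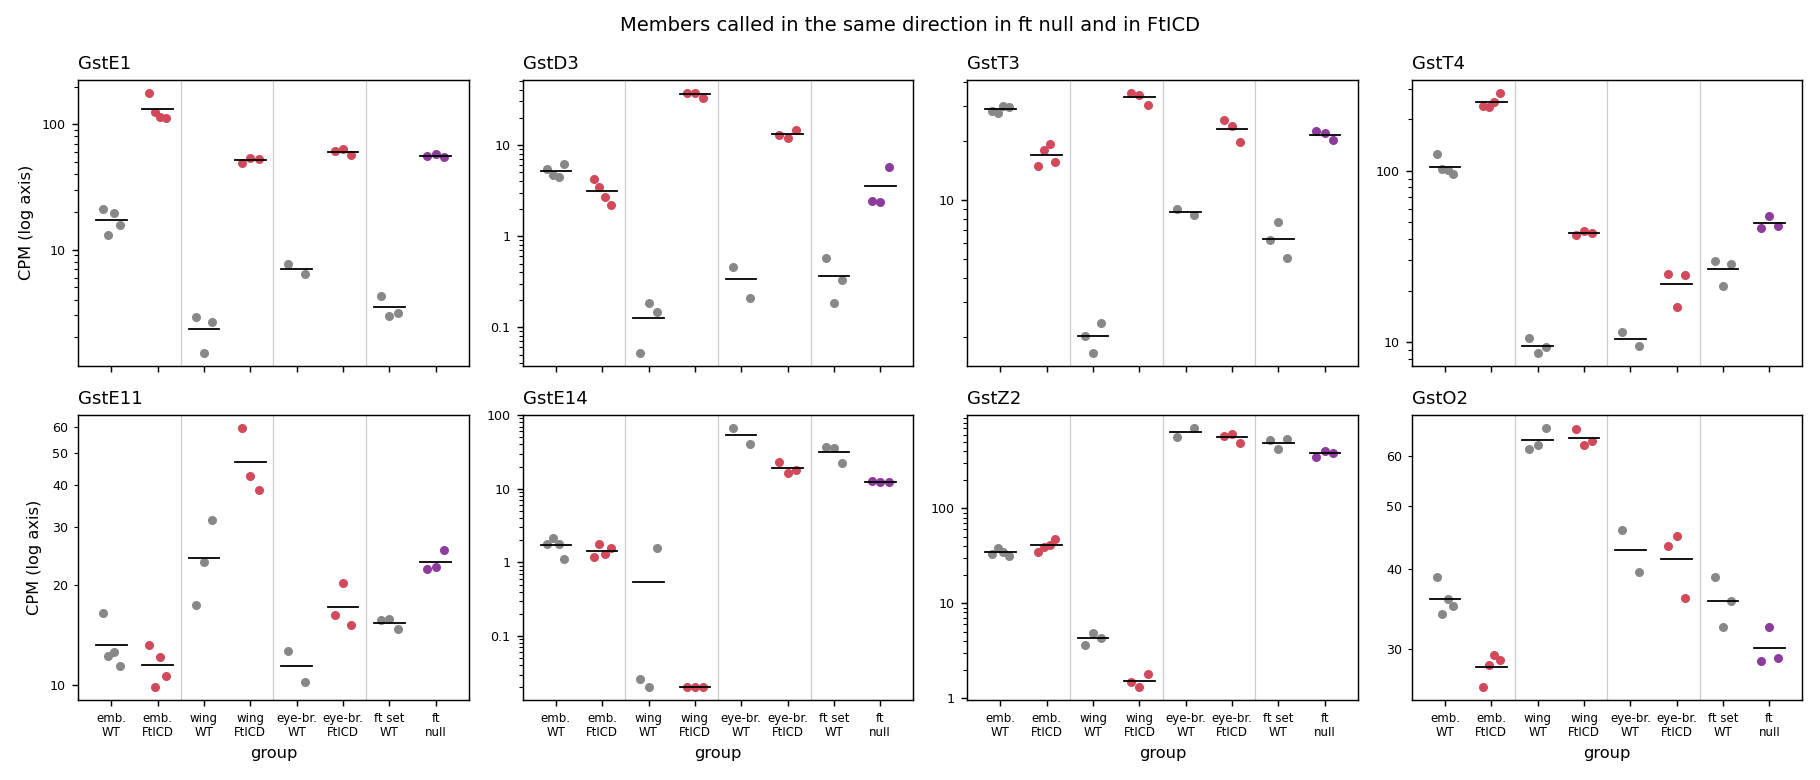
CPM in each library (points, log axis) and group mean (line) of the 8 GST genes called in the same direction in ft null and in at least 1 FtICD tissue, by group (emb. is embryo, eye-br. the eye-brain complexes of the FtICD table, ft set WT the wild type of the ft null table, values under 0.02 drawn at 0.02). GstE1 lies at 49.5 to 63.4 CPM in all FtICD and ft null larval libraries and at 7.75 or less in wild-type larval libraries.

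The levels reached by the raised genes were set beside each other. GstE1 lay between 49.5 and 63.4 CPM in all 9 FtICD and ft null larval libraries, while the wild-type larval libraries ranged from 1.51 to 7.75. GstT3 lay between 19.7 and 35.1 CPM in the same 9 libraries and between 1.67 and 8.96 in larval wild type, yet in embryos its order was inverted, with wild type at 27.6 to 29.9 and FtICD at 14.8 to 19.3. GstD3 lay at different levels, with 33 to 37.4 CPM in FtICD wing discs, 12.0 to 14.7 in FtICD eye-brain complexes and 2.37 to 5.79 in ft null.

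Some genes were called in opposite directions, among them GstD3, GstT3 and GstZ2 of the 8 shared genes. Of the 12 members called in ft null, 6 (50%) were called in the opposite direction in at least 1 FtICD tissue. That was so for 37.3% of all 4440 genes called in ft null. Of the members called in both embryos and ft null, 6 moved in opposite directions, namely GstD1, GstD3, GstE6, GstE13 and GstT3, lower in FtICD embryos and higher in ft null, and GstZ2, higher in embryos and lower in ft null. They are 66.7% of the 9 members called in both, beside 61.7% of all genes called in both. Between embryos and wing discs, 5 members were called in the same direction and 4 in opposite directions (GstD3, GstE12, GstT3 and GstZ2), or 44.4% opposite, beside 29.9% of all genes called in both. The embryo call of GstZ2 in these counts had overlapping groups and was lost with any one of 6 libraries left out, at adjusted p from 0.053 to 0.10. The embryo call of GstD3 was lost with any one of 3 left out. Of the 6 members called in both wing discs and ft null, 0 were in opposite directions, beside 33.2% of all genes called in both. GstE1 and GstE8 were the 2 members called in 1 direction in all 3 FtICD tissues, GstE1 higher and GstE8 lower, of 24 tested in all 3 (8.33%, beside 1.24% of all genes). The eye-brain call of GstE8 was lost without FtICD replicate 1. Its wild type there was at 9.47 to 11.8 CPM, whereas that of the ft null table was at 1.59 to 2.96. Across the 4 comparisons 27 members were called at least once, 79.4% of those tested beside 68.6% of all genes, and 8 never, among them GstD6, which was too low to be tested in any.

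The differences between effects were tested as well. The FtICD effect differed between wing discs and embryos for 17 of 34 GST genes tested, where 27.7% of all 12680 genes did. Of the 17, 12 had the larger log2 fold change in wing discs, beside 1860 of all 3507 genes called. Between eye-brain complexes and wing discs it differed for 8 of 34 (12% of all genes) and between eye-brain complexes and embryos for 12 of 34 (28.2%). The differences between wing disc and embryo effects were 8.79 ± 0.42 for GstD3 and 4.76 ± 0.19 for GstT3 (SE, log2, edgeR adjusted p = 1.8e-09 and 3.0e-10). For GstE1 the wing disc effect exceeded that of embryos by 1.49 ± 0.28 (adjusted p = 1.2e-03), and that of eye-brain complexes fell short of that of wing discs by a difference of -1.36 ± 0.32 (8.9e-03). The effect on GstO3 was less negative by 1.23 ± 0.15 in wing discs and by 1.43 ± 0.17 in eye-brain complexes than in embryos (4.2e-05 and 3.3e-05). For GstS1 the eye-brain effect exceeded that of wing discs by 4.29 ± 0.60 (1.0e-04). Its eye-brain effect was not called alone, and its wing disc call was lost in 4 of 11 alternatives. Its eye-brain wild type here was at 43.9 to 58.4 CPM, whereas that of the ft null table was at 379 to 487.

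In eye-brain complexes the effect of ft null differed from that of FtICD for 7 of 29 GST genes, where 17.2% of all 10916 genes tested did. The log2 fold change was higher in ft null than in FtICD for GstE1 by 0.96 ± 0.19 (edgeR adjusted p = 7.6e-03) and for GstD9 by 1.05 ± 0.19 (5.0e-03). It was higher too for GstE13 by 0.89 ± 0.14 (3.1e-03), for GstE8 by 1.91 ± 0.38 (8.5e-03) and for GstT1 by 0.68 ± 0.11 (3.6e-03). GstE8 and GstT1 were lowered in FtICD and not called in ft null, so for them ft null had the weaker effect. The log2 fold change was lower in ft null than in FtICD for GstS1 (-2.41 ± 0.48, 8.5e-03) and for GstE2 (-1.19 ± 0.32, 0.032). GstE2 was at 26.6, 23.3 and 22.9 CPM in FtICD eye-brain complexes against 16.1 and 15.5, and at 8.28, 9.09 and 8.66 in ft null against 18.1, 8.35 and 13.9. It passed the test in neither comparison alone. The differences for GstD3, GstT3, GstT4 and GstE14 did not pass the test. The tables, instruments, ribosomal RNA shares and wild-type libraries differ between these effects, and that part cannot be told apart from the genotype.

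The wild types of the eye-brain sets carry the same label but did not match for some members. Their makeup differed as well. The share of ribosomal RNA was 13.7% and 10.1% in the wild type set against FtICD. It was 0.403%, 0.460% and 0.437% in the wild type set against ft null. Outside the family, Hsc70-4 was at 80.2 and 42.3 CPM in the former and 6492, 5872 and 6151 in the latter. The part of this makeup in the GST differences was not tested. GstE8 was at 11.8 and 9.47 CPM in wild type of the FtICD table and at 2.96, 1.59 and 2.53 in wild type of the ft null table, while FtICD lay at 2.39 to 3.30 and ft null at 1.8 to 2.70. GstE8 was thus low in all eye-brain groups except that single wild type. GstS1 was at 58.4 and 43.9 CPM in wild type of the FtICD table and at 487, 379 and 451 in that of the ft null table, where ft null lay at 329, 444 and 382. GstS1 was the only member among 460 genes with a mean log2 level at least 2 higher in the ft null table than in the eye-brain libraries of the FtICD table, FtICD replicate 3 left out, and a mean above 5 CPM in the ft null table. GstT1 differed little between the wild types, at 35.5 and 33.6 CPM against 31.9, 26.7 and 29.6, and lay at 22.8 to 24.3 in FtICD and 29.0 to 33 in ft null.

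**Figure D4:**
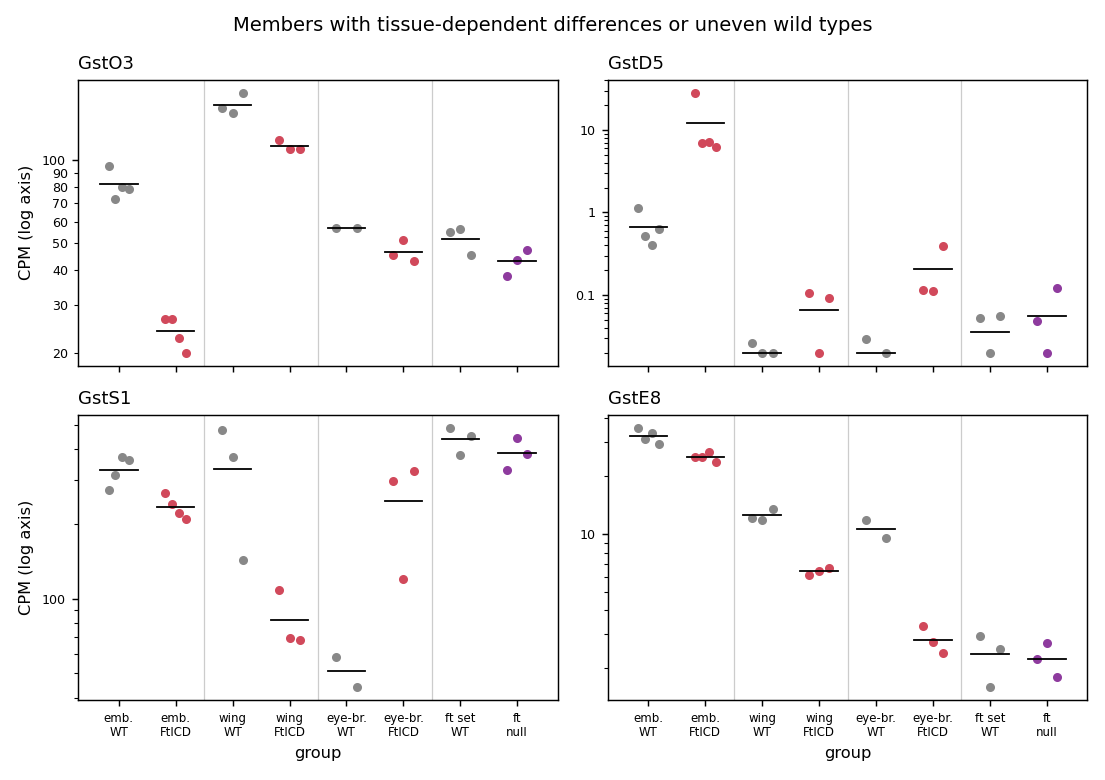
CPM in each library (points, log axis) and group mean (line) of GstO3, GstD5, GstS1 and GstE8 by group, with abbreviations as for the shared members and values under 0.02 drawn at 0.02. GstO3 and GstD5 separate most in embryos, and GstS1 and GstE8 differ between the wild types of the eye-brain sets.

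Neighbours within the clusters were called in different directions. In the Delta cluster, GstD3 was raised in the 3 larval comparisons and GstD5 in embryos, whereas GstD3 was lower in embryos (-0.69 ± 0.22, adjusted p = 0.023). That embryo call was lost without FtICD replicate 3 or 4 or wild-type replicate 4, at adjusted p from 0.051 to 0.067. GstD2 was raised in embryos by 0.92 ± 0.26 (adjusted p = 0.012) and not called in larval tissues. In the Epsilon cluster GstE1 was raised in all 4 comparisons while GstE8, near the other end, was lower in the 3 FtICD comparisons. In eye-brain complexes that call of GstE8 was lost without FtICD replicate 1. Between them GstE6 and GstE7, separated by 162 bases, moved in opposite directions in embryos.

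**Figure D5:**
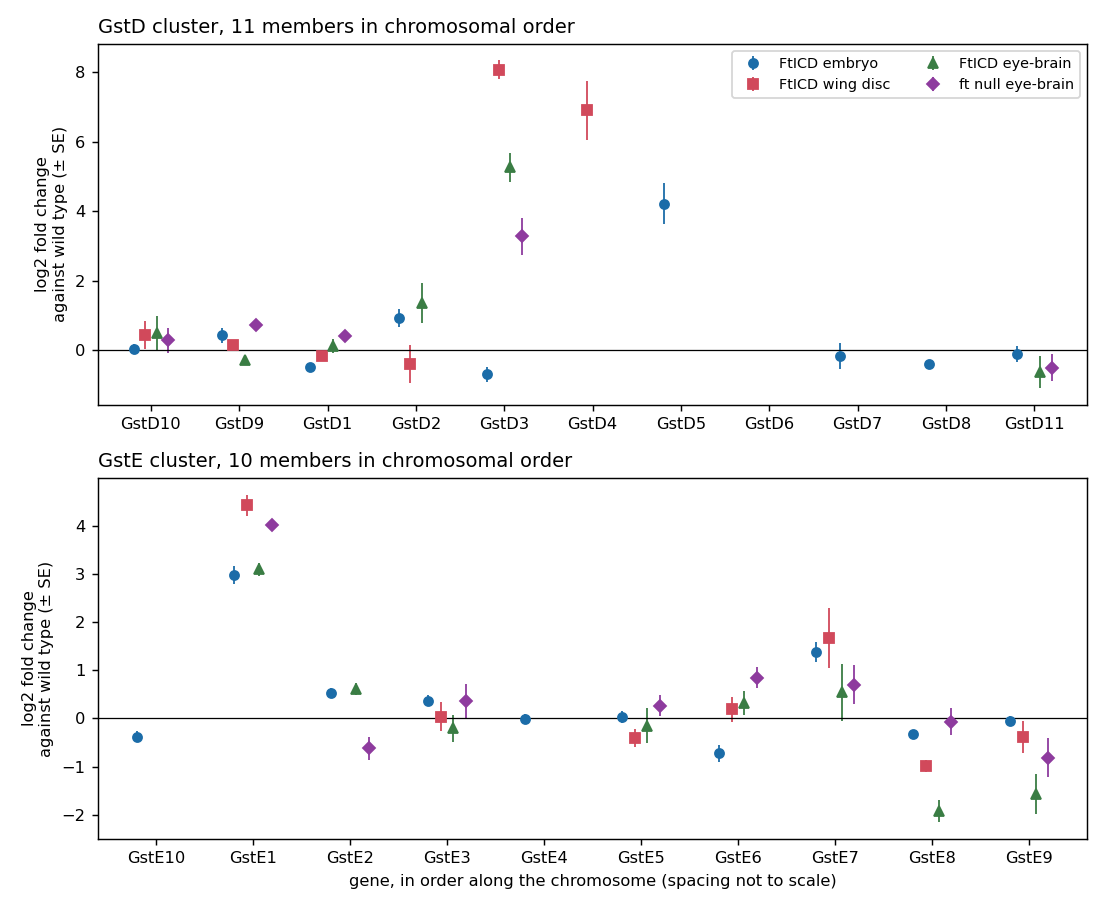
Log2 fold change with SE of the members of the Delta and Epsilon clusters in chromosomal order (not to scale) in the 4 comparisons, for members that were tested. The largest values sit at GstD3, GstD4, GstD5 and GstE1. Other cluster members such as GstD1 and GstE3 lie nearer to 0, though both were called in some comparisons.

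Genes that supply glutathione or regulate its enzymes were called in both directions. Of 12 such genes listed, 10 were in the tables, and all 10 were tested in each comparison. They were 4 higher and 3 lower in FtICD embryos, 1 and 1 in FtICD wing discs, 1 and 0 in FtICD eye-brain complexes, and 3 and 2 in ft null, with median log2 fold changes of 0.09, -0.04, 0.10 and 0.08. cnc, which encodes CncC, was higher in ft null (0.51 ± 0.05, adjusted p = 2.8e-04) and was not called in FtICD embryos, wing discs or eye-brain complexes (0.13, -0.18 and -0.12). Keap1 was higher in FtICD embryos by 0.46 ± 0.13 (adjusted p = 0.012). Gclc, the catalytic subunit of the enzyme that starts glutathione synthesis, was higher in FtICD embryos (0.44, adjusted p = 0.012) and FtICD eye-brain complexes (0.74, adjusted p = 0.049). Gclm, its modifier subunit, was lower in FtICD embryos (-0.68, adjusted p = 4.1e-04). Of the 5 genes in the tables with a GST fold or microsomal GST outside the symbol rule, 2 were higher and 2 lower in FtICD embryos, 1 was lower in FtICD wing discs, none was called in FtICD eye-brain complexes and 1 was higher in ft null. Mgstl, the microsomal GST-like gene, was lower in FtICD embryos (-0.58 ± 0.07) and wing discs (-0.58 ± 0.14), with adjusted p of 9.9e-05 and 0.032.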

How the data were processed

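RNA-seq of 25 libraries in 8 groups was used. Per the labels' protocols, 10 ng of RNA was made into cDNA with a SMARTer kit, which does not keep strand, and sequenced as paired reads of 150 bases. Tools listed, without settings, in the submitters' processing notes were Salmon 1.80, FastQC 0.10, edgeR and Trimmomatic 0.33, with the dm6 build. The authors deposited values that, from their decimals and unequal sums, are estimated counts for each gene with no scaling to depth. Of the nonzero values 31.8% were not whole (tolerance 1e-06), and all were rounded. Members and lists were chosen with earlier results of these data known, and the ring gland list was added after the data were seen.

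In R 4.3.3 with edgeR 4.0.16, genes were filtered by filterByExpr (minimum count 10) and scaled by TMM. Quasi-likelihood F tests were adjusted by Benjamini-Hochberg over all genes tested, at 0.05. Each comparison used its own libraries. Differences between effects were interaction terms, over 6 groups or the 4 eye-brain groups, with no replicate block. SEs are log2 fold changes divided by the root of F. CPM used TMM over all libraries, and the fits' own scaling differed from it by at most 0.055 (log2). Intervals and floors cover counting error only. The procedure was tested on simulated data. Values in every library are given for the 3 highest and 3 lowest called members of a comparison with a mean of at least 1 CPM, and for members called in the same direction in ft null and FtICD. Alternatives were RLE scaling, no filter, DESeq2 1.42.0, ribosomal RNA and mitochondrial genes left out, a replicate block and each library left out. No pair of libraries in a group was duplicated (chi-square per degree of freedom 7.96 or higher).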

Additional observations from a re-analysis of the deposited data

Results flagged for a closer look

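In a group of 4 embryo libraries, a value was marked when its gap to the nearest library, as a part of the group's range, exceeded Dixon's 95% critical value. Of 48 such groups of the members given in every library, 7 were marked, where chance marks about 1 in 20. In FtICD embryos 5 marks fell on replicate 1, with GstD5 at 28.3 CPM, GstE10 at 25.6, GstE6 at 129, GstE7 at 127 and GstT1 at 23.8. In wild-type embryos GstD7 was at 2.55 CPM in replicate 1 and GstT1 at 17.9 in replicate 3.

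The FtICD effect differed between tissues, by an interaction test (edgeR, adjusted p under 0.05), for these members. From embryos to wing discs the log2 effect shifted by 8.79 for GstD3, 4.76 for GstT3, 4.61 for GstE4, 1.49 for GstE1, 1.23 for GstO3, 1.12 for GstE11, 0.96 for GstE6 and 0.89 for GstT4. It shifted by -7.10 for GstE14, -1.79 for GstZ2, -1.57 for GstS1, -0.87 for GstT1 and -0.64 for GstE8. The fitted shifts of GstE4 and GstE14 rest on groups at or near 0 counts, 11 against 0 in wing discs for GstE4 and 0 against 88 for GstE14, and are no measure of size.

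From wing discs to eye-brain complexes the effect shifted by 4.29 for GstS1, 1.30 for GstZ2, -2.84 for GstD3, -2.63 for GstT3, -1.36 for GstE1, -1.22 for GstE9, -1.14 for GstT4 and -0.96 for GstE8. From embryos to eye-brain complexes it shifted by 5.96 for GstD3, 3.09 for GstD8, 2.72 for GstS1, 2.13 for GstT3, 1.43 for GstO3, 1.06 for GstE6, -1.60 for GstE8, -1.52 for GstE9 and -0.66 for GstT1. GstD8 rests on 14 counts against 1 in eye-brain complexes, with 8 of the 14 in FtICD replicate 3.

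From FtICD to ft null eye-brain complexes the effect shifted by 1.91 for GstE8, 1.05 for GstD9, 0.96 for GstE1, 0.68 for GstT1, -1.19 for GstE2 and -2.41 for GstS1. The eye-brain wild types did not match for GstE8 and GstS1, and the shifts above to eye-brain complexes use that of the FtICD table.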

How the results depend on the processing

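Of the 15 counts of called GST genes, those for embryos, wing discs, wild-type tissues and differences between effects stayed within 1.5 times their value under all alternatives run. In eye-brain FtICD the 3 raised members became 6 with DESeq2 and 6 with a replicate block, and 1 to 5 with a library left out, and the 3 lowered members 0 to 3. In ft null the 3 lowered members became 6 with DESeq2 and 2 to 6 with a library left out. Raised members numbered 7 to 9 in embryos, 6 to 7 in wing discs and 8 to 9 in ft null with a library left out. The cause was not tested. Across RLE scaling, DESeq2, no filter, the ribosomal RNA setting and the block, no called member changed sign in any of the 11 comparisons. RLE scaling moved the median of all genes by -0.21 for eye-brain against embryo and by -0.13 for wing disc against embryo (log2). Uncalled log2 values near 0 turned sign with a library left out, ranging from -0.13 to 0.20 for GstT1 in embryos, -0.075 to 0.054 for GstE4 in embryos, -0.11 to 0.0046 for GstE9 in embryos, -0.060 to 0.0093 for GstO2 in wing discs, -0.16 to 0.065 for GstO2 in eye-brain FtICD and -0.29 to 0.12 for GstE8 in ft null. With the replicate block GstO2 in eye-brain FtICD was 0.038. Same-numbered libraries did not deviate together in every pair (r from -0.30 to 0.27), so replicate numbers were not taken to pair samples; no block was fitted between wild-type tissues. GstZ2 in embryos, GstE11 in wing discs, and GstE6 and GstO2 in ft null missed the threshold with the replicate block (adjusted p = 0.055, 0.090, 0.060 and 0.087). The embryo call of GstZ2 was also lost with any of 6 libraries left out, and that of GstD8 without wild-type replicate 2 (0.053). Depth limits GstD4 to GstD8, GstE4 and GstE10 in larval tissues, where single counts decide a ratio.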
